A study of Mus musculus with 30 samples.

Results

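The genes described here encode glycoproteins, elastic fibre proteins and basement membrane proteins of the extracellular matrix. They were taken from a list of 48 gene symbols grouped by function, and all 48 were found among the 35972 gene names that the deposited RNA tables share. The list was chosen with earlier results of these data known. The list holds 9 genes for fibronectin and matricellular proteins, 13 for elastic fibres and microfibrils, 14 for basement membranes, 5 for collagen VI and other non-fibrillar collagens, 2 for large aggregating proteoglycans and 5 for other matrix glycoproteins. The study addressed how mechanical cues and Yap/Taz bear on chromatin and transcription in primary wildtype mouse tail tendon fibroblasts, per the labels. All groups were kept in medium with 0.1% serum during treatment. RNA was measured in 3 groups of 3 libraries, given the solvent DMSO, blebbistatin at 10 µM or Y27632 at 30 µM, and ATAC libraries, which read out accessible chromatin, came from the same 3 treatments with 3 libraries each. A further ATAC experiment had 4 groups of 3 libraries, given neither agent, blebbistatin at 10 µM, doxycycline at 10 ng/mL, or both. The labels give wildtype as the genotype of these 12 libraries too and do not name a transgene that doxycycline would switch on.

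Blebbistatin inhibits the ATPase of non-muscle myosin II, and Y27632 inhibits the ROCK kinases, which activate myosin II through its regulatory light chain, so both lower the pull that a fibroblast exerts on its matrix. Elastic fibres are built by laying tropoelastin on a scaffold of fibrillin microfibrils, with fibulins, EMILINs and microfibril-associated proteins helping the assembly. Basement membranes are sheets in which laminin and collagen IV networks are joined by nidogens and perlecan. Matricellular proteins such as tenascins, periostin and SPARC sit in the matrix and tune cell adhesion more than they bear load.

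The RNA values are normalised counts, that is, reads per gene divided by a size factor for each library. The 9 libraries held between 23375386 and 37061737 reads. Every gene averaging 10 or more over the 6 libraries of a table was tested on the log2(normalised count + 1) scale with limma, and a gene is called changed at a Benjamini-Hochberg adjusted p under 0.05. Of the 48 genes, 47 were tested. The exception was Acan, which encodes aggrecan, the large proteoglycan of cartilage. It had 0 reads in each of the 3 DMSO libraries, 3, 4 and 2 reads under blebbistatin and 1 read in each Y27632 library, and a count of 0 allows up to 0.128 CPM, the usual count scaled to library size, in the shallowest DMSO library. Nothing in the labels says that the 3 libraries of a group came from separate animals, so the p-values measure the spread between these libraries, which may be technical. Positions of genes are those of RefSeq in build GRCm38.p6.

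The label of tendon fibroblasts was checked against 9 marker genes, among them Scx, Mkx, Tnmd and Col1a1, all of which were detected. Their summed level was 20585 to 21999 CPM under DMSO, 19547 to 21325 under blebbistatin and 20649.8 to 21679 under Y27632. Most of that sum was collagen I, with 296446 reads of Col1a1 and 244264 of Col1a2 in the first DMSO library. Scx, Mkx and Tnmd had 63, 924 and 849 reads there, so the sum says little about them. Keratinocyte markers summed to at most 0.289 and skeletal muscle markers to at most 1.93 CPM in any library. Of 6 immune markers 5 were detected, with Cd3e at 0 reads in every library, and their sum was 205 to 227 CPM under DMSO, 314 to 350 under blebbistatin and 303 to 345 under Y27632. The third DMSO library was the lowest of the 3 DMSO libraries for 30 of the 47 tested genes, against 34.4% of all genes. Its level was under 0.9 of the mean of the other two for 13 of them, against 14.7% of all genes.

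Blebbistatin did not shift the matrix genes as a block. Tnxb and Mfap2 rose by 1.15 and 1.02 on the log2 scale, while Col8a1 and Fbn2 fell by 0.90 and 0.84. Basement membrane collagens and the 3 listed collagen VI chains (Col6a1, Col6a2 and Col6a3) were among the genes that rose, and tropoelastin, fibrillins and Fbln5 among those that fell. Under blebbistatin, 35 of the 47 matrix genes were called changed, 19 higher and 16 lower. Over all 14882 genes tested, 53.0% were called, 26.1% higher and 26.9% lower. The groups did not overlap for 34 of the 47 genes, against 60.2% of all genes. A call with a log2 change of at least 0.5 in size was made for 13 of the 47, 9 higher and 4 lower, against 19.3% of all genes. The matrix genes were not matched to all genes for read count, here or below. The part of read count in these shares was not tested. The median log2 change of the 47 genes was 0.027 and that of all genes was 0.0021, and the median size of the change was 0.28 against 0.22.

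**Figure D1:**
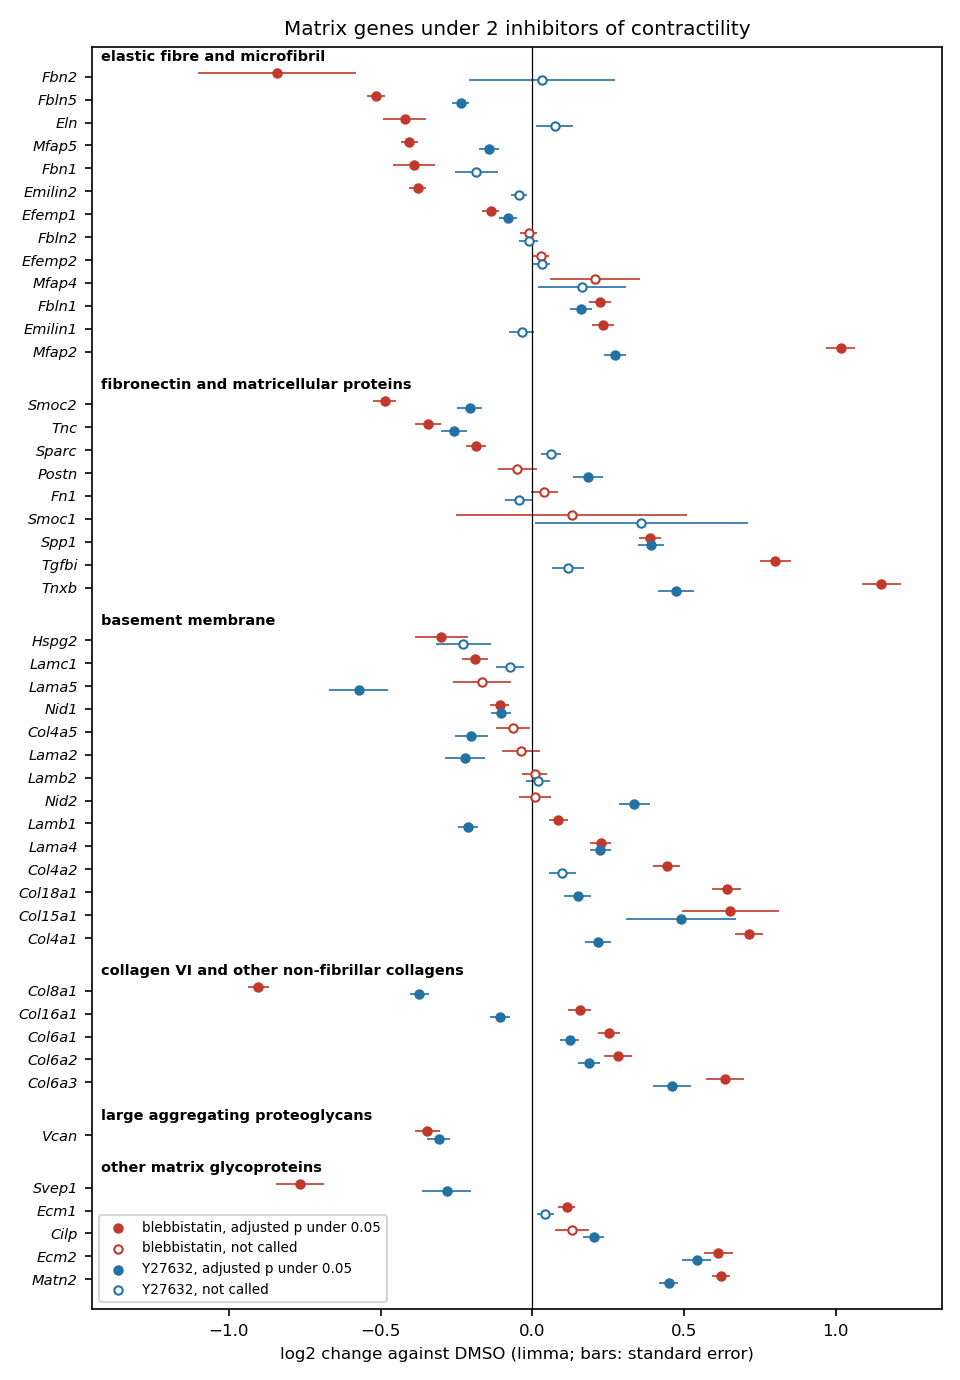
Log2 change against DMSO of each of the 47 tested genes (x axis, limma on log2 of normalised count + 1, bars are standard errors, 3 libraries per group), grouped by role, for blebbistatin in red and Y27632 in blue, with filled points for an adjusted p under 0.05. Blebbistatin changes ran from -0.90 for Col8a1 to 1.15 for Tnxb, and those of Y27632 from -0.57 for Lama5 to 0.54 for Ecm2.

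Among the 13 elastic fibre and microfibril genes, 7 fell under blebbistatin, 3 rose and 3 were not called, with a median log2 change of -0.14. The share called was 76.9%, against 53.0% of all genes. The 7 that fell were Fbn2, Fbln5, Eln, Mfap5, Fbn1, Emilin2 and Efemp1, which include tropoelastin (Eln), the main fibrillin of adult microfibrils (Fbn1) and a fibulin needed to place elastin on them (Fbln5). Fbln5 (chr12:101746565-101819119) was at 17668, 18179.6 and 18078 in the DMSO libraries and 12261, 12989 and 12485 under blebbistatin, so every blebbistatin library lay below every DMSO library. Its log2 change was -0.52 (SE 0.031, limma adjusted p = 3.6e-08). In the table with Y27632, Fbln5 was at 18367, 18873 and 18787 in the DMSO libraries and 15667, 16038 and 15883 under Y27632, again without overlap, with a log2 change of -0.24 (SE 0.028, limma adjusted p = 3.07e-05). The direct difference between the inhibitors was -0.27 (SE 0.029, edgeR adjusted p = 2.84e-06). Eln had a log2 change of -0.42 (SE 0.072, limma adjusted p = 0.000344) under blebbistatin and 0.073 (SE 0.06, limma adjusted p = 0.376) under Y27632. For Fbn1 the 2 values were -0.39 (SE 0.07, limma adjusted p = 0.000486) and -0.19 (SE 0.071, limma adjusted p = 0.0576), and for Emilin2, an elastin-associated glycoprotein, -0.38 (SE 0.028, limma adjusted p = 2.22e-07) and -0.044 (SE 0.028, limma adjusted p = 0.242). Mfap5, a small microfibril glycoprotein, fell under both inhibitors, by 0.41 and 0.14 on the log2 scale.

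Fbn2 encodes the fibrillin typical of developing tissue and was near the limit of the test. Its normalised count was 19.9, 27.6 and 26.4 in the DMSO libraries and 14.5, 13.2 and 11.9 under blebbistatin, without overlap, and its log2 change was -0.84 (SE 0.26, limma adjusted p = 0.0167). Under Y27632 it was at 20.6, 28.6 and 27.5 in the DMSO libraries and 23.3, 23 and 32.5 in the table of that inhibitor, where the groups overlapped, and the log2 change was 0.033 (SE 0.24, limma adjusted p = 0.928).

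Mfap2, Fbln1 and Emilin1 rose under blebbistatin, Mfap2 by the most. Mfap2 (chr4:141010424-141015976) encodes a microfibril glycoprotein related to the product of Mfap5 and stood at 1356, 1368 and 1348 in the DMSO libraries and 2834, 2888 and 2528 under blebbistatin. The log2 change was 1.02 (SE 0.049, limma adjusted p = 4.63e-09). Under Y27632 it was at 1410.0, 1420.0 and 1400.3 in the DMSO libraries and 1709, 1672 and 1725, also without overlap, with a log2 change of 0.27 (SE 0.037, limma adjusted p = 8.89e-05). Fbln1, a fibulin of elastic fibres and basement membranes, rose under both inhibitors, by 0.22 and 0.16 on the log2 scale, and Emilin1 rose under blebbistatin, with a log2 change of 0.23 (SE 0.036, limma adjusted p = 0.000149). The 3 elastic fibre genes not called under blebbistatin were Fbln2, Efemp2 and Mfap4, with log2 changes of -0.012, 0.027 and 0.21.

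Among the 9 genes for fibronectin and matricellular proteins, 3 rose under blebbistatin (Tnxb, Tgfbi and Spp1), 3 fell (Smoc2, Tnc and Sparc) and 3 were not called (Fn1, Postn and Smoc1). The share called was 66.7%, against 53.0% of all genes. Tnxb (chr17:34660453-34719815) encodes tenascin-X, a glycoprotein that binds fibrillar collagen and whose loss causes a form of Ehlers-Danlos syndrome. Its normalised counts were 7488, 7266 and 6156 in the DMSO libraries and 15387, 16375 and 14521 under blebbistatin, and the groups lay far apart. The log2 change was 1.15 (SE 0.065, limma adjusted p = 1.86e-08), the highest among the 47 genes. Under Y27632 the values were 7785, 7543 and 6398 in the DMSO libraries and 9502, 10291 and 10289, without overlap, and the log2 change was 0.47 (SE 0.06, limma adjusted p = 5.21e-05). In the reference annotation Tnxb overlaps the pseudogene Cyp21a2-ps, and whether reads were counted by strand is not given in the sources used here.

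Tgfbi (chr13:56609586-56639359) encodes a collagen- and integrin-binding protein that TGF-β induces in many cells. It was at 1470.5, 1276 and 1361 in the DMSO libraries and 2388, 2327 and 2434 under blebbistatin, with no overlap, a log2 change of 0.80 (SE 0.05, limma adjusted p = 4.86e-08). In the table with Y27632 it was at 1529, 1325 and 1415 in the DMSO libraries and 1544, 1478 and 1606, where the groups overlapped, and the log2 change was 0.12 (SE 0.053, limma adjusted p = 0.1). Tgfbi passed the test under blebbistatin and not under Y27632, and it also differed between the inhibitors, with a log2 difference of 0.69 (SE 0.048, edgeR adjusted p = 2.77e-08).

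Spp1 encodes osteopontin, a phosphoprotein also made by macrophages. It rose by nearly the same amount under both inhibitors, with log2 changes of 0.39 (SE 0.037, limma adjusted p = 2.18e-06) under blebbistatin and 0.39 (SE 0.043, limma adjusted p = 1.65e-05) under Y27632. The immune markers given above moved in the same direction, 5 of 5 tested being called higher in both comparisons with log2 changes of 0.32 to 0.58 and 0.22 to 0.63. Their part in the Spp1 result was not tested. In these bulk samples, more cells of a type and more RNA per cell cannot be told apart.

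Tenascin-C (Tnc), a tenascin of developing and injured tendon, fell under both inhibitors, with log2 changes of -0.34 (SE 0.042, limma adjusted p = 2.19e-05) and -0.26 (SE 0.043, limma adjusted p = 0.00043). Smoc2, a SPARC-related calcium-binding protein, likewise fell in both, by 0.49 and 0.21 on the log2 scale. Sparc, a collagen-binding matricellular protein, fell under blebbistatin with a log2 change of -0.19 (SE 0.033, limma adjusted p = 0.000473) and was at 0.062 (SE 0.034, limma adjusted p = 0.172) under Y27632. Fn1, which encodes fibronectin, had a mean of 92589 ± 6207 (SD, n = 3) under DMSO and 94991 ± 688 (SD, n = 3) under blebbistatin, and its log2 changes were 0.039 (SE 0.044, limma adjusted p = 0.486) and -0.046 (SE 0.045, limma adjusted p = 0.462). Periostin (Postn) had a log2 change of -0.049 (SE 0.065, limma adjusted p = 0.553) under blebbistatin and 0.18 (SE 0.05, limma adjusted p = 0.0116) under Y27632.

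Among the 14 basement membrane genes, 6 rose under blebbistatin, 3 fell and 5 were not called. The share called was 64.3%, against 53.0% of all genes. The 6 that rose were Col4a1, Col15a1, Col18a1, Col4a2, Lama4 and Lamb1, so 4 of the 5 collagen genes of the group were among them, the fifth being Col4a5 with a log2 change of -0.063 (SE 0.056, limma adjusted p = 0.374). Col4a1 encodes a chain of the main collagen IV network. It stood at 15123, 14238 and 13182 in the DMSO libraries and 23115, 24016 and 22578 under blebbistatin, without overlap, a log2 change of 0.71 (SE 0.045, limma adjusted p = 5.43e-08). Under Y27632 it stood at 15722, 14781 and 13699 in the DMSO libraries and 16649, 17167 and 17412, with a log2 change of 0.21 (SE 0.043, limma adjusted p = 0.00175). Its partner chain Col4a2 had log2 changes of 0.44 (SE 0.045, limma adjusted p = 4.18e-06) under blebbistatin and 0.099 (SE 0.044, limma adjusted p = 0.101) under Y27632. The 2 genes overlap in the reference annotation, so reads in the shared stretch may not be told apart.

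Col4a1 and Col4a2 lie head to head on opposite strands of chromosome 8 and are transcribed away from a shared promoter. In RefSeq's promoter windows (build GRCm38.p6, 250 bases before to 50 after a start site) their starts are 21 bases apart. The windows are shown because both genes rose under blebbistatin, and the capitals mark the 78 bases that both windows hold, as reverse complements of each other, at chr8:11312777-11312854. The Col4a1 window is chr8:11312777-11313076 on the minus strand and the Col4a2 window is chr8:11312555-11312854 on the plus strand.
Col4a1: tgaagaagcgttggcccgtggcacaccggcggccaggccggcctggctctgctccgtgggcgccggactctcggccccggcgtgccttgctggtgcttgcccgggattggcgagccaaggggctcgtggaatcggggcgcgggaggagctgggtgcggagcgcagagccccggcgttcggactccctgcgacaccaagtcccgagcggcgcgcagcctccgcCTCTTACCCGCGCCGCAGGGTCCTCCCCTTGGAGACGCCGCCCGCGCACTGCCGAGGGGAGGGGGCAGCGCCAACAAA
Col4a2: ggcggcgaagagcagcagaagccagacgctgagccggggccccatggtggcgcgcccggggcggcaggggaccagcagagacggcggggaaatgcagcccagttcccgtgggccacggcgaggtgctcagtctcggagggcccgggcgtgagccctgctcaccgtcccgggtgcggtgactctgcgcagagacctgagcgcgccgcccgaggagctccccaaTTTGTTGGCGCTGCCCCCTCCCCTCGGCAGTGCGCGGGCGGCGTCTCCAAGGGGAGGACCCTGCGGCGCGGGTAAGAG

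Col18a1 (chr10:77052178-77166530) encodes the basement membrane collagen from which endostatin is cut. It was at 3433, 3279.6 and 3073 in the DMSO libraries and 5199, 5286 and 4773 under blebbistatin, without overlap, and its log2 change was 0.64 (SE 0.048, limma adjusted p = 2.59e-07). Under Y27632 it was at 3569, 3405 and 3193 in the DMSO libraries and 3587, 3887 and 3797, with a log2 change of 0.15 (SE 0.044, limma adjusted p = 0.0178). Col15a1, its closest relative, had few reads, with values of 41.7, 53 and 48.2 in the DMSO libraries and 75.8, 82.2 and 68 under blebbistatin. The groups did not overlap and the log2 change was 0.65 (SE 0.16, limma adjusted p = 0.00443). In the table with Y27632 it was at 43.4, 55 and 50.1 in the DMSO libraries and 69.9, 56.7 and 84.9, and the log2 change was 0.49 (SE 0.18, limma adjusted p = 0.0496).

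The laminins did not move together. Lama4 rose by nearly the same amount in both comparisons, with log2 changes of 0.23 (SE 0.034, limma adjusted p = 0.000117) and 0.22 (SE 0.036, limma adjusted p = 0.00031). Lama5 (chr2:180176373-180225904) encodes a laminin chain found widely in epithelial and vascular basement membranes. It was at 316, 318 and 259 in the DMSO libraries and 189, 213 and 196 under Y27632, without overlap, a log2 change of -0.57 (SE 0.097, limma adjusted p = 0.000533) and the lowest among the 47 genes in that comparison. Under blebbistatin it was at 304, 307 and 249 in the DMSO libraries and 249, 243 and 272, where 1 DMSO library lay within the range of the blebbistatin libraries, and the log2 change was -0.17 (SE 0.096, limma adjusted p = 0.168). Lamb1, a β chain, was one of 2 genes called in opposite directions. It stood at 8161, 8375 and 7972 in the DMSO libraries and 8739, 8505 and 8752 under blebbistatin and at 8484, 8694 and 8285 in the DMSO libraries and 7461, 7082 and 7424 under Y27632, with log2 changes of 0.085 (SE 0.031, limma adjusted p = 0.0348) and -0.21 (SE 0.032, limma adjusted p = 0.000223). Lamc1, the γ chain shared by most laminins, fell under blebbistatin with a log2 change of -0.19 (SE 0.042, limma adjusted p = 0.00224), and Lamb2 was not called in either comparison.

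Of the proteins that link the networks, nidogen-1 (Nid1) fell by 0.11 and 0.10 on the log2 scale under blebbistatin and Y27632. Nidogen-2 (Nid2) rose under Y27632, with a log2 change of 0.34 (SE 0.05, limma adjusted p = 0.000204), and had 0.0089 (SE 0.054, limma adjusted p = 0.905) under blebbistatin. Perlecan (Hspg2) fell under blebbistatin, with a log2 change of -0.30 (SE 0.087, limma adjusted p = 0.0115), and was at -0.23 (SE 0.092, limma adjusted p = 0.0708) under Y27632. Endothelial cells also make basement membranes, and the sum of 5 endothelial markers was 118 to 119 CPM under DMSO, 78.5 to 88.5 under blebbistatin and 106 to 111 under Y27632. Nearly all of that sum came from Tek, with means of 3110.4 under DMSO and 2014 under blebbistatin, while Pecam1 had a mean of 5.75 under DMSO and Emcn was at 0 in the DMSO libraries. Cdh5 had 70, 66 and 51 reads under DMSO and 74, 107 and 90 under blebbistatin, not scaled for depth. Kdr had 10, 16 and 14 reads and 18, 27 and 28. Of the 3 endothelial markers tested under blebbistatin, 1 was called, lower, and the median log2 change was 0.30. Markers of pericytes, the mural cells of small vessels, summed to 3.24 to 4.53 CPM under DMSO, 2.71 to 2.82 under blebbistatin and 2.81 to 3.81 under Y27632. Of the 3, only Rgs5 had enough reads to be tested, with log2 changes of -0.52 (SE 0.16, limma adjusted p = 0.0183) under blebbistatin and -0.24 (SE 0.16, limma adjusted p = 0.281) under Y27632. The part of the endothelial and pericyte markers in the basement membrane results was not tested.

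All 3 collagen VI genes of the list rose under both inhibitors. Collagen VI forms the beaded filaments around tendon cells from α1, α2 and α3 chains. Col6a3 (chr1:90766860-90844001), the α3 chain, was at 22217, 22039.5 and 18541 in the DMSO libraries and 33863, 33257 and 30177 under blebbistatin, without overlap, a log2 change of 0.63 (SE 0.064, limma adjusted p = 3.66e-06). Under Y27632 it was at 23097, 22879.9 and 19268 in the DMSO libraries and 27667, 31151 and 30746, with a log2 change of 0.46 (SE 0.062, limma adjusted p = 9.11e-05). The changes of Col6a1 and Col6a2 were smaller, 0.25 and 0.28 under blebbistatin and 0.12 and 0.19 under Y27632.

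Col8a1 (chr16:57624256-57754737), a short-chain collagen of vessel walls and remodelling tissue, had the lowest change under blebbistatin among the 47 genes. It was at 4545, 4738 and 4729 in the DMSO libraries and 2466, 2461 and 2564 under blebbistatin, so that the groups lay far apart. The log2 change was -0.90 (SE 0.034, limma adjusted p = 6e-10). Under Y27632 the values were 4725, 4919 and 4915 in the DMSO libraries and 3820.2, 3676 and 3751, also without overlap, and the log2 change was -0.37 (SE 0.032, limma adjusted p = 1.77e-06). Col16a1, a fibril-associated collagen, was the other gene called in opposite directions. It was at 14217, 13313 and 13163 in the DMSO libraries and 14970.2, 15758 and 14627 under blebbistatin and at 14780.3, 13820.3 and 13678 in the DMSO libraries and 13032, 13245 and 12984 under Y27632, with log2 changes of 0.16 (SE 0.038, limma adjusted p = 0.00426) and -0.11 (SE 0.033, limma adjusted p = 0.0249). Both changes were small beside those of Col8a1.

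Versican (Vcan), the large hyaluronan-binding proteoglycan of loose and provisional matrix, fell by nearly the same amount in both comparisons, with log2 changes of -0.35 (SE 0.04, limma adjusted p = 1.34e-05) and -0.31 (SE 0.038, limma adjusted p = 4.02e-05). Among the 5 other matrix glycoproteins, Matn2, Ecm2 and Ecm1 rose under blebbistatin, Svep1 fell and Cilp, a cartilage intermediate layer protein also found in tendon, was at 0.13 (SE 0.056, limma adjusted p = 0.0662). Matn2 encodes matrilin-2, a filament-forming adaptor protein. It was at 9239.9, 9096 and 8990.3 in the DMSO libraries and 13675, 14099 and 14316 under blebbistatin, without overlap, a log2 change of 0.62 (SE 0.03, limma adjusted p = 4.55e-09). Under Y27632 it was at 9606, 9443 and 9343 in the DMSO libraries and 12837, 12527 and 13419, with a log2 change of 0.45 (SE 0.032, limma adjusted p = 2.89e-07). Chondrocyte markers, of which Sox9 gave most of the reads, summed to 5.3 to 6.39 CPM under DMSO, 8.25 to 8.91 under blebbistatin and 8.18 to 8.4 under Y27632. Nerve sheath markers summed to 4.32 to 5.11, 6.03 to 6.46 and 5.03 to 6.16. Their part in the Matn2 and Cilp results was not tested.

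Ecm2, a leucine-rich matrix protein, was at 701, 686 and 663 in the DMSO libraries and 1016, 1075 and 1045 under blebbistatin, a log2 change of 0.61 (SE 0.048, limma adjusted p = 4.25e-07). Under Y27632 it was at 729, 712 and 689 in the DMSO libraries and 1050.1, 1009 and 1041, the highest change of that comparison among the 47 genes at 0.54 (SE 0.047, limma adjusted p = 1.72e-06). The groups did not overlap in either comparison. Ecm2 overlaps Cenpp in the reference annotation, in which 24 of the 48 genes overlap at least 1 other annotated gene. Svep1, a large multidomain adhesion protein, was at 56809, 59417 and 45190.3 in the DMSO libraries and 31331, 32770.5 and 30201 under blebbistatin, without overlap, a log2 change of -0.77 (SE 0.079, limma adjusted p = 4.41e-06). In the table with Y27632 it was at 59059, 61683 and 46962 in the DMSO libraries and 42157, 47590.0 and 47395, where the third DMSO library lay within the range of the Y27632 libraries, and the log2 change was -0.28 (SE 0.08, limma adjusted p = 0.015).

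**Figure D2:**
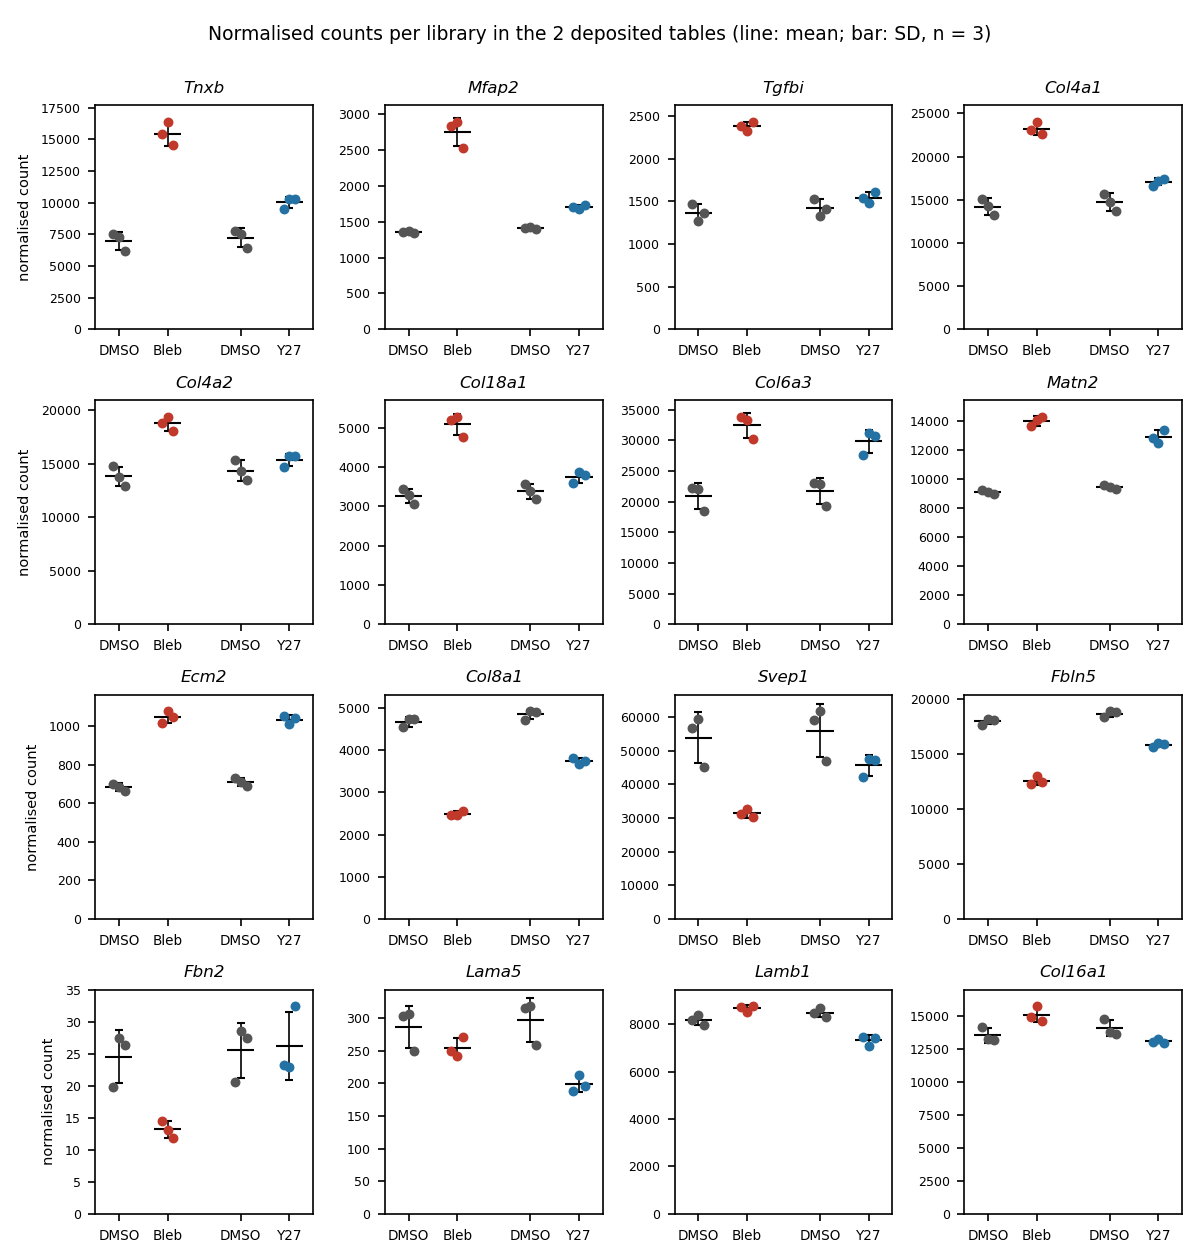
Normalised count per library (y axis, starting at 0) of 16 matrix genes in the table with blebbistatin (left pair of columns) and the table with Y27632 (right pair), with points for libraries, a line for the mean and a bar for the SD (n = 3). The blebbistatin points lie apart from DMSO in every panel drawn except that of Lama5, while the Y27632 points of Fbn2, Tgfbi, Col4a2 and Svep1 overlap DMSO.

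With Y27632, Ecm2, Tnxb, Col6a3 and Matn2 rose, by 0.54, 0.47, 0.46 and 0.45 on the log2 scale, and Lama5, Col8a1 and Vcan fell, by 0.57, 0.37 and 0.31. The same 3 collagen VI chains rose and Fbln5 fell as under blebbistatin, while Eln, Fbn1 and Tgfbi did not pass the test. Under Y27632, 30 of the 47 matrix genes were called changed, 16 higher and 14 lower. Over all 14833 genes tested, 35.9% were called, 18.1% higher and 17.8% lower. The groups did not overlap for 31 of the 47 genes, against 48.1% of all genes. Only Lama5 and Ecm2 passed the test with a log2 change of at least 0.5 in size, that is 2 of 47, against 8.32% of all genes. The median size of the log2 change was 0.19 over the 47 genes and 0.15 over all genes. Both comparisons use the same 3 DMSO libraries, so a departure of those libraries enters both. The count of 14 lower genes was 9 without DMSO replicate 1, 9 without DMSO replicate 2 and 9 without Y27632 replicate 1, and 16 without DMSO replicate 3.

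By role, the 13 elastic fibre genes had 5 calls under Y27632, 2 higher and 3 lower, and Eln and Fbn1 were not among them. That is 38.5% of the 13, near the 35.9% of all genes. The 14 basement membrane genes had 10 calls, 5 higher (Col15a1, Nid2, Lama4, Col4a1 and Col18a1) and 5 lower (Lama5, Lama2, Lamb1, Col4a5 and Nid1). The 9 fibronectin and matricellular genes had 5 calls, 3 higher and 2 lower, and all 5 genes of collagen VI and other non-fibrillar collagens were called, 3 higher and 2 lower. Of the 5 other glycoproteins, 4 were called, 3 higher and 1 lower. The share called was 71.4% for basement membrane genes and 55.6% for fibronectin and matricellular genes. It was 100% for the collagen VI group and 80% for the other glycoproteins, in groups of only 5 genes each.

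Some calls rested on single libraries or on the method. The settings listed by gene here and below leave out the replicate block, whose changes are given in the last section. Under blebbistatin, 31 of the 35 calls held with the same sign under every alternative setting that kept the gene, at most 14. The call on Fbn2 was lost without DMSO replicate 2 or 3 and with DESeq2 on recovered reads (adjusted p from 0.0513 to 0.0721). The call on Hspg2 was lost without DMSO replicate 1 or 2 or blebbistatin replicate 1 and with DESeq2 on recovered reads (adjusted p from 0.0513 to 0.0628). The call on Lamb1 was lost without DMSO replicate 1 or 3 or blebbistatin replicate 1 or 3 and with all genes kept whatever their level (adjusted p from 0.0589 to 0.108). The call on Nid1 was lost without DMSO replicate 2 or blebbistatin replicate 1 (adjusted p from 0.0604 to 0.0608). Lama5, Lama2 and Col4a5 became called without DMSO replicate 3 (adjusted p = 0.0314, 0.0134 and 0.0311). Cilp became called without blebbistatin replicate 3, with upper-quartile scaling or with DESeq2 (adjusted p from 0.00227 to 0.0379).

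Under Y27632, 21 of the 30 calls held with the same sign under every alternative setting that kept the gene, at most 14. The call on Col15a1 was lost without DMSO replicate 1, 2 or 3 or Y27632 replicate 1 or 3 and with all genes kept whatever their level, upper-quartile scaling, edgeR on recovered reads or DESeq2 on recovered reads (adjusted p from 0.0523 to 0.204). The call on Efemp1 was lost without DMSO replicate 2 or 3 or Y27632 replicate 1, 2 or 3 and with pseudocount 8, all genes kept whatever their level or DESeq2 on recovered reads (adjusted p from 0.0525 to 0.187). The call on Nid1 was lost without DMSO replicate 1 or 2 or Y27632 replicate 1 or 2 (adjusted p from 0.0516 to 0.102). The call on Svep1 was lost without DMSO replicate 1 or 2 or Y27632 replicate 1 and with DESeq2 on recovered reads (adjusted p from 0.0574 to 0.0815). The call on Lama2 was lost without DMSO replicate 1 or 2 or Y27632 replicate 1 or 3 (adjusted p from 0.0505 to 0.0918). The call on Col16a1 was lost without DMSO replicate 1 or Y27632 replicate 1 or 3 (adjusted p from 0.063 to 0.0997). The call on Col18a1 was lost without DMSO replicate 3 or Y27632 replicate 2 or 3 (adjusted p from 0.0577 to 0.0761). The call on Col4a5 was lost without DMSO replicate 1 or 2 (adjusted p from 0.0532 to 0.0557). The call on Postn was lost without DMSO replicate 1 (adjusted p = 0.0567). Hspg2 and Fbn1 became called lower without DMSO replicate 3, the library that was low for both, with log2 changes of -0.36 and -0.29 (adjusted p = 0.000549 and 0.000484), as did Lamc1 (adjusted p = 0.0256). Fbn1 was also called with edgeR or upper-quartile scaling (adjusted p at most 0.0452). Tgfbi and Col4a2 became called without DMSO replicate 1 (adjusted p = 0.0238 and 0.017).

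The inhibitors were then compared with each other over all 9 libraries, on the whole reads recovered from the tables, with edgeR's quasi-likelihood test. Mfap2, Tgfbi, Tnxb and the collagens Col4a1 and Col18a1 were higher under blebbistatin, and Col8a1, Fbn2, Eln and Svep1 were lower. Of the 47 genes, 29 differed, 17 higher under blebbistatin and 12 higher under Y27632. Over all 14925 genes tested, 53.1% were called, 26.9% higher and 26.2% lower under blebbistatin. A difference of at least 0.5 in size was called for 7 of the 47 genes, against 16.9% of all genes. The doses were 10 µM of blebbistatin and 30 µM of Y27632, so a difference between the groups is one between these doses as well as between agents.

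Mfap2, Tgfbi, Tnxb, Col4a1 and Col18a1 were at least 0.5 higher under blebbistatin than under Y27632, and Col8a1 and Fbn2 at least 0.5 lower. The log2 difference was 0.76 (SE 0.045, edgeR adjusted p = 6.47e-09) for Mfap2, 0.69 (SE 0.048, edgeR adjusted p = 2.77e-08) for Tgfbi and 0.69 (SE 0.061, edgeR adjusted p = 4.12e-07) for Tnxb. For the basement membrane collagens it was 0.51 (SE 0.042, edgeR adjusted p = 1.8e-07) for Col4a1, 0.50 (SE 0.047, edgeR adjusted p = 6.01e-07) for Col18a1 and 0.36 (SE 0.044, edgeR adjusted p = 1.07e-05) for Col4a2, while for Col15a1 it was 0.17 (SE 0.16, edgeR adjusted p = 0.394). On the lower side, Col8a1 differed by -0.52 (SE 0.033, edgeR adjusted p = 1.16e-08), Fbn2 by -0.91 (SE 0.25, edgeR adjusted p = 0.00765), Eln by -0.48 (SE 0.076, edgeR adjusted p = 0.000104), Svep1 by -0.47 (SE 0.077, edgeR adjusted p = 0.000142) and Emilin2 by -0.32 (SE 0.025, edgeR adjusted p = 1.02e-07). Eln, which encodes tropoelastin, was thus lower under blebbistatin than under either DMSO or Y27632.

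Laminins and nidogens differed too. Lama5 was higher under blebbistatin than under Y27632, with a log2 difference of 0.42 (SE 0.095, edgeR adjusted p = 0.0019), as was Lamb1 with 0.31 (SE 0.031, edgeR adjusted p = 1.13e-06). Nid2 was lower under blebbistatin, with -0.31 (SE 0.05, edgeR adjusted p = 0.000114), and was the one basement membrane gene of 8 called to be lower. Col16a1 differed by 0.28 (SE 0.035, edgeR adjusted p = 1.46e-05) and Emilin1 by 0.28 (SE 0.038, edgeR adjusted p = 2.13e-05), both higher under blebbistatin.

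Several genes that changed against DMSO did not pass the test of a difference between the inhibitors. The log2 difference was 0.0079 (SE 0.041, edgeR adjusted p = 0.887) for Spp1, 0.013 (SE 0.033, edgeR adjusted p = 0.772) for Lama4, -0.025 (SE 0.037, edgeR adjusted p = 0.594) for Vcan and 0.0072 (SE 0.03, edgeR adjusted p = 0.857) for Nid1. It was -0.074 (SE 0.044, edgeR adjusted p = 0.176) for Tnc and 0.084 (SE 0.043, edgeR adjusted p = 0.112) for Ecm2. A p that misses the threshold does not show that the inhibitors act alike on these genes. Of the 29 differences, 23 held with the same sign under every alternative setting that kept the gene, at most 12. The call on Col6a2 was lost without blebbistatin replicate 1 or 2 or Y27632 replicate 1 or 2 and with limma on jointly scaled values (adjusted p from 0.0598 to 0.203). The call on Col6a3 was lost without blebbistatin replicate 1 or 2 or Y27632 replicate 1 and with DESeq2 (adjusted p from 0.0643 to 0.114). The call on Fbn1 was lost without blebbistatin replicate 3 or Y27632 replicate 2 or 3 and with DESeq2 (adjusted p from 0.0695 to 0.089). The call on Col4a5 was lost without blebbistatin replicate 2 or 3 or Y27632 replicate 1 (adjusted p from 0.096 to 0.126). The call on Ecm1 was lost without blebbistatin replicate 1 or 2 and with all genes kept whatever their level (adjusted p from 0.0552 to 0.0934). The call on Lama2 was lost without blebbistatin replicate 3 or Y27632 replicate 1 (adjusted p from 0.0528 to 0.0759). Lamc1 became called, lower under blebbistatin, without Y27632 replicate 1 and with DESeq2, limma on jointly scaled values, no filter on low counts or only the treated libraries (adjusted p from 0.00146 to 0.0444). Fn1 became called, higher under blebbistatin, with no filter, a mean of at least 100 or only the treated libraries (adjusted p from 0.0108 to 0.0255). With no filter, Tnc and Hspg2 also became called, both lower under blebbistatin (adjusted p = 0.0216 and 0.0442). Fbln1 became called higher with a mean of at least 100 (adjusted p = 0.0424) and Cilp lower without blebbistatin replicate 2 (adjusted p = 0.0304).

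**Figure D3:**
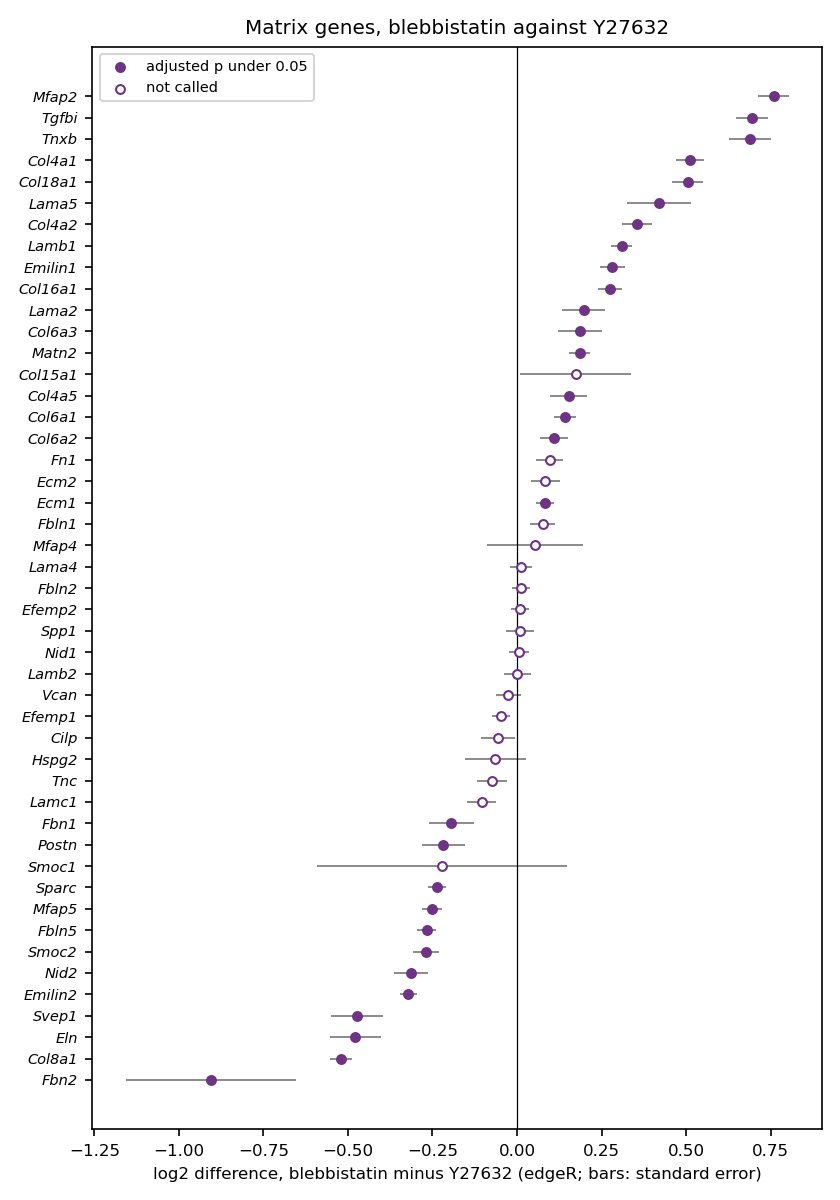
Log2 difference between blebbistatin and Y27632 libraries (x axis, edgeR, bars are standard errors, positive when higher under blebbistatin) for the 47 tested genes in order of the difference, with filled points for an adjusted p under 0.05. Mfap2, Tgfbi and Tnxb stand at 0.69 or above, and Col8a1 and Fbn2 stand at -0.52 and -0.91.

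The chromatin data are lists of sites whose accessibility differed between groups, deposited with group means, a log2 fold and a false discovery rate (FDR) and an annotation to the nearest gene start. They hold no values per library, so the folds below are from the authors' deposited tables, with no test of their own here, and the group means were not compared across lists except in 1 check given below. Coordinates are in build mm10, per the submitters' processing notes. The list for blebbistatin against DMSO held 970 sites, of which 98.2% were lower under blebbistatin, and 3 were annotated to the matrix genes, 1 site each. That is 6.4% of the 47 tested genes, against 3.5% of all genes tested. The list for Y27632 held 207 sites, 85.0% lower, with 1 at these genes. That is 2.1% of the 47 tested genes, against 0.8% of all genes tested.

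Those entries are 3 different sites, since 1 is in both lists, and all lay at elastic fibre genes. Both lists were set against the same 3 DMSO libraries, so the presence of 1 site in both is not independent. The site annotated to Fbln5, intergenic at chr12:101830839-101831013 and 11807 bases upstream of the gene's start, is in both lists, with a log2 fold of -1.66 (FDR 0.0268) under blebbistatin and -1.33 (FDR 0.0339) under Y27632 in the authors' deposited table. The Fbn2 site, in intron 7 of 64, had -1.76 (FDR 0.00972), and the Fbn1 site at chr2:125384360-125384750, in intron 13 of 65, had -1.3 (FDR 0.0437) under blebbistatin. RNA of the 3 genes also fell under blebbistatin, by 0.52 for Fbln5, 0.84 for Fbn2 and 0.39 for Fbn1 on the log2 scale. Over all tested genes with a site in the blebbistatin list, 53.4% of 519 had lower RNA, against 26% of the 14363 genes without one. The Fbn1 and Efemp1 sites and the promoter sites named below were picked after their values were seen.

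In the doxycycline experiment, which shares no library with the ATAC comparison above, blebbistatin alone gave a list of 1231 sites, 99.0% lower, with 4 at matrix genes. Genes with such a site are 8.5% of the 47 tested genes, against 4.3% of all genes tested. The Fbln5 and Fbn2 sites recurred in that list. The Fbln5 site overlapped by 175 bases, with a log2 fold of -1.13 (FDR 0.00864), and the Fbn2 site by 123 bases, with -1.94 (FDR 0.00172). These overlaps are 2 of the 3 matrix-gene sites of the one list and 2 of the 4 of the other. Over all sites, 35.8% of the 970 and 28.5% of the 1231 overlapped one in the other list by at least 1 base. The others were a site at -13240 bases from the start of Sparc (chr11:55433211-55433428), with -1.24 (FDR 0.00129), and one near Efemp1 at chr11:28951701-28952157, with 1.16 (FDR 0.00267), among only 12 higher sites in that list. RNA of Sparc and Efemp1 was lower under blebbistatin, with log2 changes of -0.19 and -0.14.

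Doxycycline without blebbistatin gave 7613 sites, 95.8% higher, and 37 were at 21 of the 48 matrix genes, 36 higher and 1 lower. All 21 were among the 47 genes tested for RNA (44.7%), and 24.3% of all genes tested had a site in that list. That list is labelled as set against the group with neither agent, while its header names the reference mean as the group with blebbistatin. At the 13 sites with the same coordinates in the list for blebbistatin alone, the log2 difference of that reference mean from the mean of the group with neither agent was -0.13 to -0.12, and from the mean of the blebbistatin group 0.91 to 1.4. The label of the list, and not the header, was followed here. Elastic fibre genes held 16 of the 37 and basement membrane genes 12. The lowest FDR was at Eln, in intron 6 of 36 at chr5:134730815-134731065, with a log2 fold of 1.93 (FDR 5.16e-12). Another overlapped by 167 bases the ATAC site of Fbn2 that was lower under blebbistatin, with a log2 fold of 1.12 (FDR 0.000384). The lower site was near Postn, with -1.48 (FDR 0.0107). Blebbistatin in the presence of doxycycline gave 6346 sites, 99.8% lower, and 39 were at 23 matrix genes, all lower, with folds from -1.55 to -1.01. Those 23 are 48.9% of the 47 tested genes, against 17.5% of all genes tested. Their lowest FDR was at a site annotated to Fbln5, chr12:101851941-101852622, with -1.01 (FDR 3.6e-13). It lies outside Fbln5, at -33163 bases from its start, in intron 16 of 20 of another annotated transcript. The other Fbln5 site and those annotated to Ecm2, Col6a1 and Vcan likewise lie outside the gene, in introns of other transcripts. The site annotated to Col4a2 lies within Col4a1. In the list of doxycycline without blebbistatin, sites annotated to Col4a1, Col4a2 and Vcan also lie outside the gene, in introns of other transcripts. The last 2 lists share the doxycycline libraries, so their opposite directions are not independent. Of the 39 sites, 3 were annotated to promoters (7.69%), those of Mfap5, Nid1 and Postn, against 1.78% of the list, and the median distance of the 39 from a start was 28280.0 bases against 44544 for the list. In the list of doxycycline without blebbistatin both went the other way. There 1 of the 37 sites was annotated to a promoter (2.70%), against 18.7% of that list. The median distance of the 37 was 34406 bases, against 22396 for that list.

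Of the 23 genes with a site that was lower under blebbistatin in the presence of doxycycline, 13 had lower RNA, 7 higher RNA and 3 no call under blebbistatin in the RNA experiment. Of the 24 tested genes without such a site, 3 had lower RNA, 12 higher RNA and 9 no call. Over all tested genes the same split was 36.8% lower and 26.4% higher among 2600 genes with a site. Among the 12282 without, it was 24.8% lower and 26.0% higher. Genes with several such sites include Fbn1 with 4, and Tnc, Lama4 and Col8a1 with 3 each. RNA of Fbn1, Tnc and Col8a1 fell and RNA of Lama4 rose. Sites were assigned by the nearest start, so Ecm2, Col6a1, Vcan, Col4a2 and Fbln5 count among the 23 through sites in other transcripts.

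**Figure D4:**
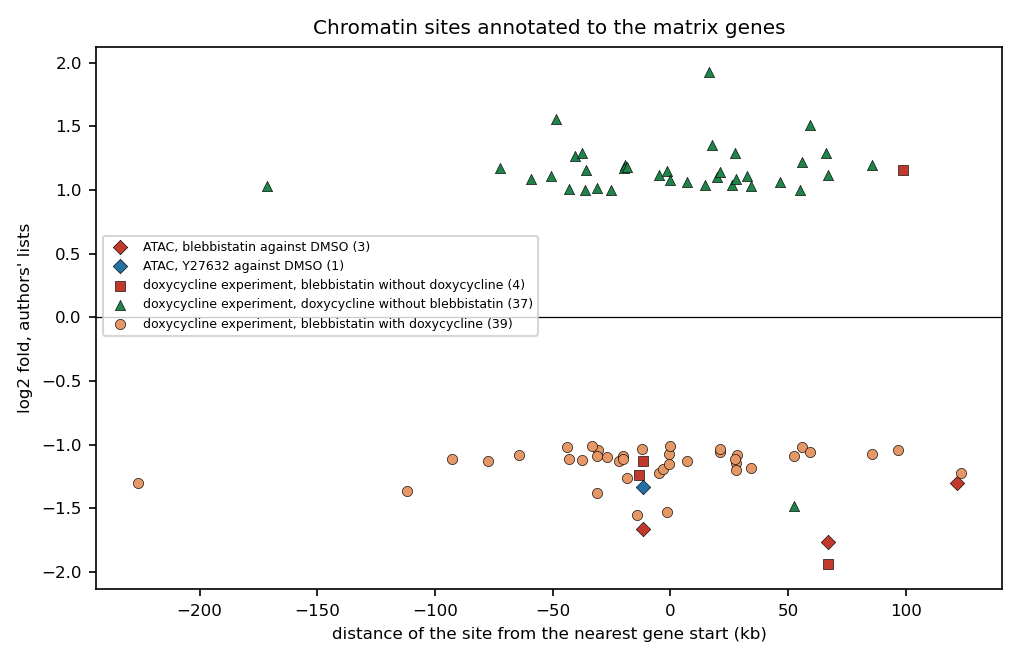
Log2 fold of each site annotated to a matrix gene in the authors' lists (y axis) against its distance from the nearest gene start in kb (x axis, negative upstream), by list, with the number of sites in brackets. All 39 sites of blebbistatin with doxycycline lie below 0 and 36 of the 37 doxycycline sites above it, most of them more than 5 kb from a start.

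The TEAD factors, through which Yap and Taz bind DNA, recognise sites with the core GGAATG. The authors' blebbistatin list reports a match to a TEAD motif in 603 of 970 sites (62.2%), and in 443 (45.7%) the matched core reads GGAATG. Each of the 3 matrix-gene sites has a match. The matched letters of the Fbln5 and Fbn1 sites, shown because these are matrix-gene sites of that list, are given below, and those of the Fbn2 site are not printed. They are given 5′ to 3′ on the strand of the motif with the core positions in capitals. Those positions read GGAATG in the Fbn1 site but AGAATG in the Fbln5 site.
Fbln5 site: aAGAATGcag
Fbn1 site: aGGAATGtgc

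RefSeq's promoter windows were found for 37 of the 48 genes, 48 windows in all. GGAATG, searched on both strands, was in 7 of the 48 windows (14.6%) against 14.7% of all 32851 windows of that length, at Acan, Col18a1, Col6a2, Emilin2, Mfap2, Nid1 and Svep1. The AP-1 letters TGANTCA, also on both strands, were in 4 windows (8.33%) against 7.81%, at Col6a1, Ecm1, Efemp1 and Tnxb. Both shares are near the background. The windows of 3 genes are printed with GGAATG in capitals: Nid1 because its window overlaps by 263 bases the promoter site that was lower under blebbistatin with doxycycline (chr13:13437389-13437762, log2 fold -1.01, FDR 0.0252, authors' deposited table), and Mfap2 and Svep1 because they hold the same letters and their RNA moved in opposite directions. The match starts at -165 from the start site in Nid1, at -176 in Mfap2 and at -239 in Svep1. The windows are chr13:13437352-13437651 (plus strand), chr4:141010174-141010473 (plus strand) and chr4:58206547-58206846 (minus strand).
Nid1: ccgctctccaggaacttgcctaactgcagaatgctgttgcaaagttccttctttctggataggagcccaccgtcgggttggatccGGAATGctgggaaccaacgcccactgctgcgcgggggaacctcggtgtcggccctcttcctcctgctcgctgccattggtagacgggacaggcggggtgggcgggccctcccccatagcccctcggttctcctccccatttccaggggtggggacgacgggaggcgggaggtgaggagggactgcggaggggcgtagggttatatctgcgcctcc
Mfap2: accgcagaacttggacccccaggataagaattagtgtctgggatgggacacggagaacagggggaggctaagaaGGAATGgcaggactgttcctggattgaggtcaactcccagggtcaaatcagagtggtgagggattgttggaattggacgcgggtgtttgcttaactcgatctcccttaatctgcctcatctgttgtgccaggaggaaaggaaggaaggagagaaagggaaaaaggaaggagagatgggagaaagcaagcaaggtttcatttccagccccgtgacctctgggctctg
Svep1: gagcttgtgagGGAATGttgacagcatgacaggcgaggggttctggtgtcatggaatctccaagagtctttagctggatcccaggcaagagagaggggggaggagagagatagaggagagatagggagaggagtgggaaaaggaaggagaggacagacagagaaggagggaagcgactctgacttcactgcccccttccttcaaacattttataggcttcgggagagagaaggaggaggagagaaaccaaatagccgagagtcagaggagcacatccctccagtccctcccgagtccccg

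Lists of genes around these proteins were counted in the same fits, in which 53.0% of all genes were called under blebbistatin and 35.9% under Y27632. Of 27 cell-surface receptors for them, all tested, 13 rose and 8 fell under blebbistatin (77.8% called), and 13 rose and 3 fell under Y27632 (59.3%). Of 20 other collagen VI-like, short-chain and matricellular genes tested, 5 rose and 8 fell under blebbistatin (65% called), and 6 rose and 3 fell under Y27632 (45%). Of 17 other basement membrane genes tested, 3 rose and 5 fell under blebbistatin (47.1% called, below the share of all genes), and 1 rose and 4 fell under Y27632 (29.4%, also below). Of 16 other elastic fibre and microfibril genes tested, 5 rose and 5 fell under blebbistatin (62.5% called), and 4 rose and 6 fell under Y27632 (62.5%).

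Named from these lists are genes called with a log2 change of at least 1 in size. The CCN-family matricellular genes Cyr61 and Ctgf, widely used as targets of Yap and Taz, fell under blebbistatin with log2 changes of -2.01 (SE 0.059, limma adjusted p = 7.3e-11) and -1.60 (SE 0.1, limma adjusted p = 4.52e-08). Their values under Y27632 were -0.13 (SE 0.045, limma adjusted p = 0.0372) and -0.11 (SE 0.076, limma adjusted p = 0.267), and the direct log2 differences were -1.87 (SE 0.061, edgeR adjusted p = 1.71e-11) and -1.47 (SE 0.10, edgeR adjusted p = 3.76e-08). Nov, another CCN-family gene, rose under both, with 1.54 (SE 0.038, limma adjusted p = 1.83e-11) and 0.36 (SE 0.043, limma adjusted p = 3.07e-05). Among receptors, Antxr1, a collagen-binding surface protein, had log2 changes of 1.15 (SE 0.037, limma adjusted p = 1.57e-10) and 0.58 (SE 0.034, limma adjusted p = 5.45e-08). Integrin α8 (Itga8) had 1.34 (SE 0.077, limma adjusted p = 2.33e-08) and 1.04 (SE 0.09, limma adjusted p = 1.92e-06), while the collagen-binding integrin α2 (Itga2) had 1.02 (SE 0.16, limma adjusted p = 0.00021) and -0.026 (SE 0.17, limma adjusted p = 0.92).

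Loxl4, a lysyl oxidase-like enzyme of collagen and elastin cross-linking, fell under both inhibitors, with means of 776 under DMSO and 375 under blebbistatin and log2 changes of -1.05 (SE 0.061, limma adjusted p = 2.33e-08) and -0.87 (SE 0.054, limma adjusted p = 8.58e-08). Col6a6, a further collagen VI chain, fell in both comparisons while the 3 collagen VI genes above rose, with means of 84.8 under DMSO and 51.9 under blebbistatin and log2 changes of -0.71 (SE 0.20, limma adjusted p = 0.0107) and -1.08 (SE 0.18, limma adjusted p = 0.000401). Col6a5, another further chain, had means of 23.9 under DMSO and 12.8 under blebbistatin, with log2 changes of -0.83 (SE 0.28, limma adjusted p = 0.0239) and -0.24 (SE 0.27, limma adjusted p = 0.51), so it fell under blebbistatin. It was chosen after its values were seen. Lama1, a laminin chain at a low count, had means of 14.5 under DMSO and 5.93 under Y27632 and a log2 change of -1.18 (SE 0.41, limma adjusted p = 0.038) under Y27632.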

How the data were processed

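The members and gene lists used here were chosen with earlier results of these data known. RNA signal values are reads per gene that the authors deposited divided by a size factor per library, in 2 tables that were normalised separately, per the file headers and values: 100% of values above 0 were whole multiples of a step within a tolerance of 0.05, and 0 of the DMSO reads differed between the tables over 35972 genes. The submitters' processing notes name HISAT2, Picard, featureCounts, DESeq2, Bowtie2, SAMtools, MACS2, DiffBind and HOMER and build mm10, with no versions, and whether reads were counted by strand is not given in the sources used here. The deposited site lists give log2 group means, log2 folds, a p-value, an FDR, a score and a GC fraction for each site, per the file headers, and nothing per library.

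Genes with a mean of at least 10 were fitted on log2(value + 1) with limma 3.58.1 (trend, R 4.3.3), each inhibitor against DMSO within its own table, and log2 changes understate those of low genes. The inhibitors were compared on the recovered whole reads with edgeR 4.0.16 (quasi-likelihood, TMM, all 9 libraries). P-values were Benjamini-Hochberg adjusted over all genes tested. Alternatives were pseudocounts of 0.5 and 8, no filter or a mean of at least 100, upper-quartile scaling, edgeR and DESeq2 1.42.0 on recovered reads, a replicate block, each library left out, and stricter limits on sites (FDR under 0.01, within 50000 bases of a start). In simulated data, the limma fit of 14854 genes called 67.7% of genes changed by 0.5 and 89% of those changed by 1 on the log2 scale for blebbistatin against DMSO. For Y27632 the shares were 85.6% and 94.9%. The simulation changed 100 genes by each size and gave every gene the same spread beyond counting noise. In the real comparison with blebbistatin 53.0% of genes were called, so the shares recovered there may differ. Replicates of a group differed beyond counting noise (chi-square per degree of freedom of 2.63 to 8.06), so each counts as a library. Members with normalised counts in every library are those called with a log2 change of at least 0.5 in size in a comparison with DMSO, or called in opposite directions. Sites named are those shared by the ATAC and doxycycline-experiment lists for blebbistatin and the lowest FDR per list. Levels were not compared between genes, since transcript lengths were not used here.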

Additional observations from a re-analysis of the deposited data

How the results depend on the processing

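The 47 genes were recomputed under the other pseudocounts, filters, scalings and tools named above and with each library left out. With one library left out, the log2 values that changed sign for blebbistatin were Fn1 (-0.016 to 0.079), Lama2 (-0.13 to 0.018), Lamb2 (-0.029 to 0.030), Nid2 (-0.060 to 0.050), Postn (-0.11 to 0.026) and Smoc1 (-0.20 to 0.42). For Y27632 they were Fbln2 (-0.030 to 0.0056), Fbn2 (-0.12 to 0.12) and Lamb2 (-0.017 to 0.050). Between the inhibitors they were Cilp (-0.12 to 0.0037), Efemp2 (-0.013 to 0.022), Fbln2 (-0.0038 to 0.027), Lama4 (-0.011 to 0.027), Lamb2 (-0.043 to 0.028), Mfap4 (-0.067 to 0.13), Nid1 (-0.013 to 0.018), Smoc1 (-0.62 to 0.025) and Spp1 (-0.026 to 0.054). Between the inhibitors with DESeq2, the sign changed for Lamb2 (-0.0032). Between the inhibitors with limma on jointly scaled values, the sign changed for Efemp2 (-0.00013), Lamb2 (-0.0078) and Nid1 (-0.0013). Between the inhibitors with no filter on low counts, the sign changed for Spp1 (-0.0035), Efemp2 (-0.0028), Lamb2 (-0.0099) and Nid1 (-0.0041). None of these genes was called in the comparison in which its sign changed. The counts of genes called higher or lower stayed within 1.5 times the reported ones under every setting, except that the 14 genes lower under Y27632 ranged from 9 to 16 with one library left out. Replicate numbers did not pair the libraries: the deviations of same-numbered libraries correlated at between -0.095 and 0.022. With the replicate block, 7604, 4633 and 7699 genes were called in the 3 comparisons, with 19 matrix genes higher and 16 lower for blebbistatin, 15 and 11 for Y27632, and 17 and 12 between the inhibitors. For blebbistatin the block lost the call on Lamb1 and gained one on Cilp, so the genes counted were not all the same. For Y27632 it lost the calls on Col15a1, Efemp1, Nid1 and Col16a1. Lamb1 and Col16a1 are the genes called in opposite directions, so each lost a call under the block. The chromatin counts are small: at FDR under 0.01 the ATAC list for blebbistatin kept 1 site at the matrix genes and that for Y27632 kept 0, and within 50000 bases of a start site blebbistatin kept 1 in the ATAC list and 2 in the list without doxycycline. Depth limits Acan, Smoc1 (8 to 22 reads per library) and Fbn2 most, followed by Col15a1.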
